A study of Homo sapiens with 6 samples.

Results

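Transcripts of 10 ETS family transcription factors were measured in HMEC-1 cells in which the lysine methyltransferase SETD7, also written Set7, had been knocked down. The 10 genes were taken by symbol from the deposited count table: ETV1, ETV4, ETV5, ETV6, ETS1, ETS2, ERG, FLI1, ELK3 and ELF1. All 10 had a row among the 18544 genes of the table, and all 10 passed the filter on low counts. The knockdown cells, called Set7KD (n = 3), carried a lentiviral shRNA against SETD7, and the control cells, called NTC (n = 3), carried a lentiviral non-targeting shRNA. HMEC-1 is an immortalised line of human dermal microvascular endothelial cells, and both groups were grown in MCDB131 medium with 5.5 mM glucose. Poly-A RNA was sequenced. The labels do not say how many hairpins were used, or whether each library had its own transduction, so that a p-value speaks of the spread among these 6 libraries alone. A transcript level per library cannot tell fewer expressing cells from less RNA per cell.

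ETS factors share a DNA-binding domain that recognises a GGAA core, and they differ in the signals and partners that act on them. ETV1, ETV4 and ETV5 form the PEA3 group. Their genes are transcribed when growth factor receptors activate the RAS, RAF, MEK and ERK kinases, and the repressor Capicua, encoded by CIC, holds them silent until ERK inactivates it. ERG and FLI1 are lineage factors of endothelium that keep endothelial genes such as CDH5 active, and ETS1 and ETS2 are phosphorylated by ERK and act in blood vessel growth. ELK3 is a ternary complex factor that binds promoters together with SRF, ELF1 takes part in vascular and blood gene expression, and ETV6 is a repressor.

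Depth was 16385878 to 16953331 gene counts per library, so that 1 count was worth 0.0585 to 0.0618 CPM (counts scaled to a common library size), the unit of level used here. SETD7 itself (ENSG00000145391.7) stood at 32.8 ± 9.59 CPM in Set7KD and 178 ± 2.18 CPM in NTC (mean ± SD, n = 3 each), with 15.6, 24.6 and 15.0% of the NTC mean in Set7KD replicates 1, 2 and 3. Its log2 fold change was -2.44, with an edgeR adjusted p of 0.000927. The 9 endothelial markers tested had mean levels between 1.07 and 206 CPM, with CDH5 the highest. Of these 9, 4 fell, 2 rose and 3 did not pass, and their sum was 402 to 442 CPM in Set7KD and 508 to 652 CPM in NTC. ERG, itself one of the 10 ETS genes, was among the 9 and is part of this sum. It was among the 3 that did not pass, but was lower with the replicate number as a block (adjusted p 0.000178). PECAM1 was not analysed here. The leukocyte markers CD68 and CD14, the 2 tested of 8, both fell and summed to 21.5 to 28.2 CPM in Set7KD and 36.1 to 38.7 CPM in NTC, and the CD14 call was lost in 6 of 17 alternatives, among them without Set7KD replicate 3 and without NTC replicate 1. Of 6 fibroblast markers tested 5 rose in Set7KD, and the sum of the 6 was 3163 to 4130 CPM in Set7KD and 1458 to 2005 CPM in NTC. Most of this sum was COL1A1, with 2411 to 3145 CPM in Set7KD and 1284 to 1825 CPM in NTC. Of 8 smooth muscle and pericyte markers 3 rose, 4 with the replicate number as a block in the fit (CSPG4 at an adjusted p of 5.61e-05) and 5 without Set7KD replicate 2. The 8 summed to 678 to 938 CPM in Set7KD and 325 to 366 CPM in NTC. Most of the Set7KD sum was TAGLN, with 418 to 629 CPM in Set7KD and 76.9 to 106 CPM in NTC. ACTA2, PDGFRB, MYH11 and RGS5 did not pass in the main fit, and MYH11 and RGS5 had log2 fold changes of -0.15 and -0.07. The epithelial keratins KRT8 and KRT18 did not pass, except KRT8 with the replicate block (lower, adjusted p 0.013), and summed to 227 to 248 CPM in Set7KD and 219 to 262 CPM in NTC. The smallest total of any gene in the table was 60 counts, so no tested marker could be absent from all libraries. The leukocyte markers PTPRC, CSF1R, CD3E, MS4A1, ITGAM and SPI1 had no row in the table. The same held for the epithelial markers CDH1, KRT5, KRT14 and KRT19 and the fibroblast markers DCN and FAP, and EPCAM did not pass the filter. The part of the marker shifts in the ETS results was not tested.

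The order of the 10 genes was set by length-scaled levels, in CPM per kilobase of annotated exon. ELK3 was highest, with 33.9 ± 1.08 CPM per kilobase in Set7KD and 28.0 ± 0.527 in NTC (SD, n = 3 each here and below). ETS1 followed with 29.4 ± 0.826 in Set7KD and 24.8 ± 0.461 in NTC, and ELF1 with 18.8 ± 1.89 in Set7KD and 20.5 ± 1.31 in NTC. These genes thus led the order in both groups. ETS2 had 12.6 ± 0.635 in Set7KD and 13.6 ± 2.8 in NTC, ERG 8.72 ± 0.81 in Set7KD and 11.4 ± 2.38 in NTC, and FLI1 7.85 ± 0.183 in Set7KD and 8.46 ± 0.73 in NTC. ETV5, the most abundant gene of the PEA3 group, had 6.46 ± 0.701 CPM per kilobase in Set7KD and 10.5 ± 0.583 in NTC. On this scale it stood below FLI1 in Set7KD and above it in NTC. This change of place depends on the exon lengths. In CPM, ETV5 was below FLI1 in both groups, with 37.5 against 64.2 in Set7KD and 60.8 against 69.2 in NTC. Lowest were ETV6 with 2.95 ± 0.0759 in Set7KD and 2.78 ± 0.218 in NTC, ETV4 with 1.24 ± 0.337 in Set7KD and 2.68 ± 0.39 in NTC, and ETV1 with 0.145 ± 0.0627 in Set7KD and 0.481 ± 0.00546 in NTC. Between neighbours in the NTC order, the ranges of ETS2 and ERG overlapped, as did those of ERG and ETV5, and of ETV6 and ETV4. The other neighbours in this order did not overlap. These ranges hold the spread among libraries and not the error of the exon lengths, so they cannot settle the order of the genes. The annotation behind the counts may differ from that of the lengths. In CPM without length scaling, ETS1 stood above ELK3 in NTC, at 177 against 130 CPM, the reverse of this order.

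**Figure D1:**
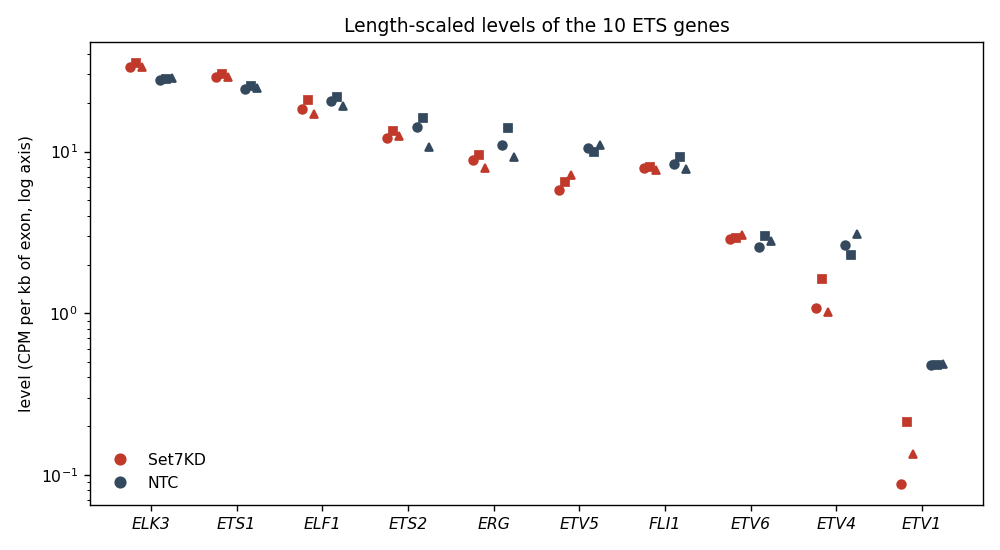
Level of each gene in CPM per kilobase of annotated exon (log axis), with Set7KD libraries in red on the left of each pair and NTC libraries in dark blue on the right. Symbols mark replicates 1, 2 and 3 as circle, square and triangle. ELK3 and ETS1 lie highest, and ETV1 lies lowest and furthest apart between the groups.

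The 3 PEA3 genes fell in Set7KD, and no library of one group reached the range of the other for any of them. Across the 10 genes, 3 fell and 2 rose by edgeR at an adjusted p under 0.05, against 36.2% of all 18482 genes tested, with 18.6% of all genes lower and 17.6% higher. Levels of 5 of the 10 genes were free of overlap between Set7KD and NTC, against 47.4% of all genes. The share of 5 in 10 without overlap lay near the background, and nothing is read from it. In size, 0.406% of all genes had a lower log2 fold change than ETV1 and 1.8% a lower one than ETV4, and 5.65% had a lower one than ETV5. Exact permutation of the 6 library labels (two-sided, on CPM) gave p = 0.1 for each of ETV1, ETV4, ETV5, ETS1 and ELK3, which is the smallest p possible at n = 3 each. The same exact permutation gave p = 0.2 for ERG, 0.3 for ETV6, FLI1 and ELF1, and 0.6 for ETS2.

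ETV1 (ENSG00000006468.9, chromosome 7, minus strand) showed the largest fall of the 10. Its level was 0.847, 2.04 and 1.29 CPM in Set7KD replicates 1, 2 and 3, against 4.62, 4.58 and 4.68 CPM in NTC. These values rest on 14, 33 and 21 counts in Set7KD and 79, 76 and 80 counts in NTC. The NTC libraries were almost level, while the Set7KD libraries ranged 2.41-fold, with replicate 2 the highest. The log2 fold change was -1.73 (standard error 0.23, edgeR adjusted p 3.56e-05). Set7KD replicates 1, 2 and 3 kept 18.3, 44.1 and 27.8% of the NTC mean.

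The stretch before the most upstream ETV1 start is shown because it holds a word of the kind that Capicua binds, the repressor of the PEA3 genes. It covers the 250 bases before that start, on the minus strand of chr7:13991426-13991675 (RefSeq, GRCh38.p14), written 5′ to 3′ with the word in capitals.
ETV1 upstream: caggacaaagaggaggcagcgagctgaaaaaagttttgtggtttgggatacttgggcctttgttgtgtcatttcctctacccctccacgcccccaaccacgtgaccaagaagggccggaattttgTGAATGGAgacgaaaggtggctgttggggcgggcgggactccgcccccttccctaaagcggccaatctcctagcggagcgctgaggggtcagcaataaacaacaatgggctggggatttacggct

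The search covered both strands of 18 such windows from 6 of the 10 genes, namely ETV1, ETV6, ELK3, ELF1, ERG and ETS2. ETV4, ETV5, ETS1 and FLI1 had no window, so the words were not sought in the other PEA3 genes. ETV1 had several windows, some overlapping, and those not shown held none of the words searched. The Capicua words TGAATGAA and TGAATGGA occurred in 1 of the 18 windows, the one above, and together in 2.19% of 35116 windows of all genes. The ETS word CCGGAAGT, the cyclic AMP response element TGACGTCA and the AP-1 word TGAGTCA were in none of the 18, and in 3.42, 1.65 and 4.2% of all windows. No motif overlapped another. A match is a run of letters and not a measured binding site.

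ETV4 (ENSG00000175832.8, chromosome 17, minus strand) had 3.87, 5.87 and 3.67 CPM in Set7KD, against 9.53, 8.31 and 11.1 CPM in NTC. Its highest Set7KD library, replicate 2, stayed below its lowest NTC library, which was also replicate 2. The log2 fold change was -1.11 (standard error 0.17, edgeR adjusted p 0.0002). Set7KD replicates 1, 2 and 3 kept 40.1, 60.8 and 38.1% of the NTC mean. For ETV1 and ETV4 alike, the Set7KD library with the most ETV transcript was replicate 2, the library with the most SETD7 transcript left. Replicate 2 was also the highest Set7KD library for ETS1, ETS2, ERG, FLI1, ELK3 and ELF1, so this order was not particular to ETV1 and ETV4. Among these genes, ETS1 and ELK3 were higher in Set7KD than in NTC. The part of SETD7 in these orders was not tested.

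ETV5 (ENSG00000244405.3, chromosome 3, minus strand) had 33.3, 37.6 and 41.5 CPM in Set7KD, against 61.1, 57.3 and 64.1 CPM in NTC. The spread within each group was small beside the gap between them. The log2 fold change was -0.70 with a standard error of 0.08, and the edgeR adjusted p was 7.81e-06. ETV5 differed from ETV1 and ETV4 in that its highest Set7KD library was replicate 3. The exons of ETV5 overlap those of DGKG on the same strand, and the DGKG row fell too, with 1.94 CPM in Set7KD and 2.95 CPM in NTC (adjusted p 0.0296). How the authors' counting split reads between DGKG and ETV5 is unknown, so the smaller DGKG value is uncertain. ETV4 shares exon sequence on the other strand with DHX8, whose level was 120.4 CPM in Set7KD and 122.3 CPM in NTC (adjusted p 0.777).

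**Figure D2:**
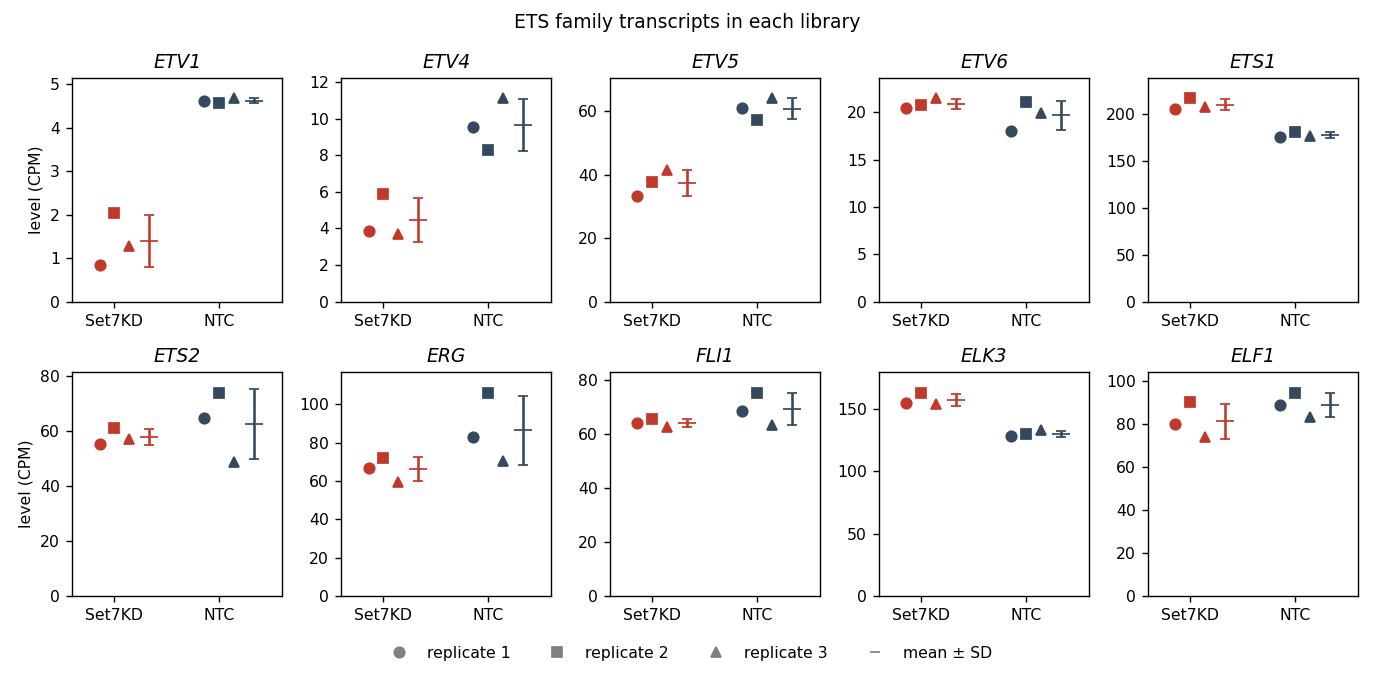
Level in CPM of each of the 10 genes in every library, with Set7KD on the left and NTC on the right of each panel, symbols for replicates 1 to 3, and bars for the mean ± SD (n = 3). Every vertical axis starts at 0. ETV1, ETV4 and ETV5 are lower and ETS1 and ELK3 are higher in Set7KD without overlap, and the other 5 genes overlap between the groups.

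Of the other 7 genes, ETS1 and ELK3, the most abundant pair, rose. ETS1 (ENSG00000134954.9) had 205.6, 216.8 and 207.9 CPM in Set7KD, against 175.0, 181.2 and 176.1 CPM in NTC. Every Set7KD library lay above every NTC library, and the log2 fold change was 0.24 with a standard error of 0.05 (edgeR adjusted p 0.00144). Without both replicate 1 libraries the adjusted p of ETS1 was 0.0533.

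ELK3 (ENSG00000111145.3) had 154.7, 163.3 and 154.5 CPM in Set7KD, against 128.1, 130.0 and 132.9 CPM in NTC. The groups again did not overlap, and the log2 fold change was 0.27 (standard error 0.05, edgeR adjusted p 0.000716). ELK3 shares exon sequence with the row RP11-394J1.2 on the other strand, which had 9.81 CPM in Set7KD and 8.08 CPM in NTC (adjusted p 0.0734). Neither ETS1 nor ELK3 passed a test against a minimum fold of 1.2, while ETV1, ETV4 and ETV5 did.

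ERG (ENSG00000157554.14), the endothelial lineage factor, had 66.9, 71.9 and 59.7 CPM in Set7KD, against 82.7, 106.1 and 70.6 CPM in NTC. The groups overlapped only through Set7KD replicate 2 and NTC replicate 3. The log2 fold change of -0.39 (standard error 0.17) did not pass, with an edgeR adjusted p of 0.13. The NTC libraries ranged 1.5-fold. With the replicate number as a block, ERG passed at a log2 fold change of -0.37 and an adjusted p of 0.000178, and within each number the Set7KD library was the lower one. ERG also passed with limma-voom at 0.0354, without NTC replicate 3 at 0.00507, and without both replicate 2 or both replicate 3 libraries at 0.0221 and 0.00552. Its adjusted p lay between 0.000178 and 0.451 over 17 alternatives.

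FLI1 (ENSG00000151702.11) had 64.2, 65.6 and 62.7 CPM in Set7KD, against 68.7, 75.4 and 63.5 CPM in NTC. Its log2 fold change was -0.11 with a standard error of 0.07 (edgeR adjusted p 0.22), and NTC replicate 3 fell inside the Set7KD range. FLI1 shares exon sequence on the other strand with FLI1-AS1, which had 2.92 CPM in Set7KD and 2.56 CPM in NTC (adjusted p 0.45).

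ELF1 (ENSG00000120690.9) had 80.0, 90.2 and 74.0 CPM in Set7KD, against 88.9, 94.8 and 83.4 CPM in NTC. The ranges overlapped, and the log2 fold change of -0.13 (standard error 0.07) had an edgeR adjusted p of 0.182. ELF1 passed with the replicate block, at an adjusted p of 0.0372, and without Set7KD replicate 2, at 0.0208. With the block the count of the 10 genes called lower was thus 5 and that called higher 2, against 42.8% of all genes called, 22.1% lower and 20.7% higher. ELF1 shares exon sequence on the other strand with WBP4, which had 25.8 CPM in Set7KD and 26.7 CPM in NTC (adjusted p 0.707).

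ETS2 (ENSG00000157557.7) had 55.5, 61.1 and 57.0 CPM in Set7KD, against 65.0, 74.1 and 48.7 CPM in NTC, so that the Set7KD libraries lay inside the NTC range. The log2 fold change was -0.11 with a standard error of 0.15 (edgeR adjusted p 0.607). The NTC libraries decided this value: leaving out NTC replicate 3 gave -0.26 (adjusted p 0.0121), and leaving out NTC replicate 2 gave 0.03 (adjusted p 0.877). Without both replicate 3 libraries the adjusted p was 0.0422.

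ETV6 (ENSG00000139083.5) had 20.4, 20.8 and 21.5 CPM in Set7KD, against 18.1, 21.1 and 19.9 CPM in NTC. Its log2 fold change of 0.09 had the same size as its standard error of 0.09 (edgeR adjusted p 0.472), and the groups overlapped.

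Set against each other, the PEA3 genes and the other 7 genes differed in median log2 fold change, at -1.11 over ETV1, ETV4 and ETV5 and -0.11 over the other 7, where the median of all genes tested was -0.00855. The gap of -1.0 is a description without a test. Relative to the NTC means, the gap was -1.21, -0.74 and -1.26 in Set7KD replicates 1, 2 and 3. No member of the other 7 had a log2 fold change as low as that of ETV5, and the lowest of them was ERG.

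The changed proportions can be seen in the pool of length-scaled ETS transcripts, summed over the 19 family genes tested. ETV1, ETV4 and ETV5 together made up 3.74, 4.26 and 4.48% of the pool in Set7KD replicates 1, 2 and 3, against 6.96, 6.18 and 7.86% in NTC. ETS1 made up 15.6 ± 0.07% in Set7KD and 12.7 ± 0.47% in NTC, and ELK3 18.0 ± 0.05% in Set7KD and 14.4 ± 0.9% in NTC (SD, n = 3 each). None of these shares overlapped between the groups, where 47.4% of all genes had levels without overlap. The shares are built from the levels given above, so they are a description and not a separate result. The pool itself was 188 ± 5.78 CPM per kilobase in Set7KD and 196 ± 9.41 CPM per kilobase in NTC.

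Elsewhere in the family, 3 of 9 tested genes fell and 0 rose by edgeR, with a median log2 fold change of -0.20. This is 33.3% called, near the 36.2% of all genes, and leaving out single libraries gave 1 to 5 lower, with 1 without Set7KD replicate 1 or NTC replicate 1, and 5 without NTC replicate 3. ELK1, a ternary complex factor related to ELK3, had 25.9 ± 1.36 CPM in Set7KD and 32.1 ± 2.42 CPM in NTC (log2 fold change -0.31, adjusted p 0.00702). ETV3, a repressor of the family, had 51.5 ± 1.73 CPM in Set7KD and 60.0 ± 2.06 CPM in NTC (log2 fold change -0.22, adjusted p 0.00983). ELF3, an epithelial member, was barely counted, with 11, 13 and 5 counts in Set7KD and 21, 33 and 15 counts in NTC (adjusted p 0.0236). ELK1 lost its call without NTC replicate 1, ETV3 without Set7KD replicate 1, and ELF3 without any of 4 single libraries, namely replicates 1 and 3 of Set7KD and replicates 1 and 2 of NTC. The others did not pass. GABPA, whose product works as a dimer with GABPB1, had a log2 fold change of -0.22 (adjusted p 0.061, and 0.0292 with the replicate block), ELF4 of -0.11, ELK4 of -0.07, ETV7 of -0.20, ERF of -0.01 and ELF2 of 0.00. The ERF, ELF2 and ETV7 values changed sign when libraries were left out.

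**Figure D3:**
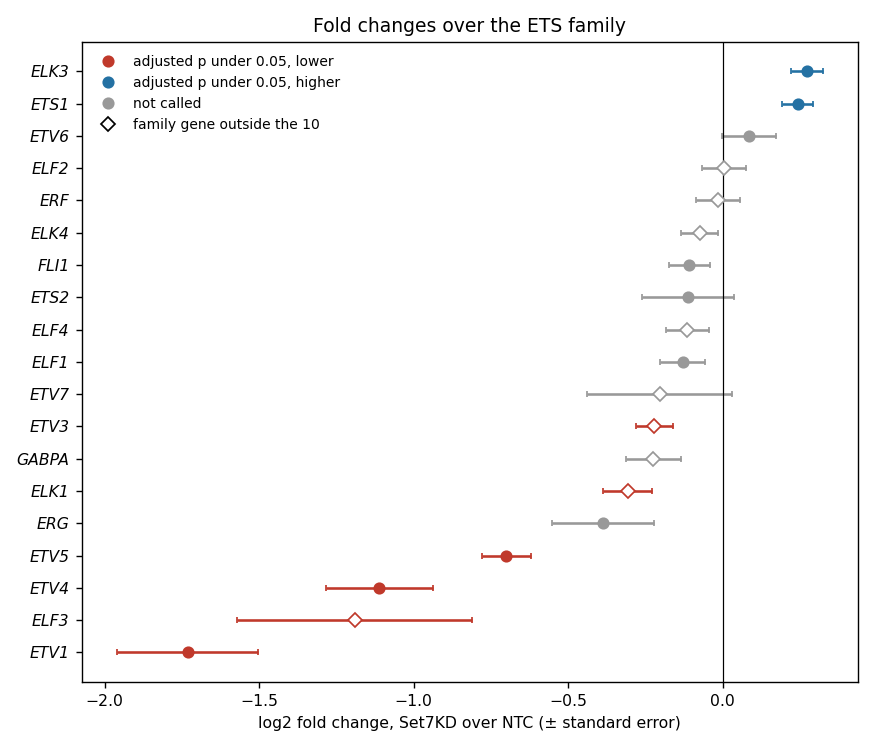
Log2 fold change of Set7KD over NTC with its standard error for the 19 ETS family genes tested, ordered from the highest at the top to the lowest at the bottom. Filled circles are the 10 genes, open diamonds are other family genes, and colour marks the edgeR call at an adjusted p under 0.05. ETV1, ELF3, ETV4 and ETV5 lie lowest, and ELK3 and ETS1 highest.

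Since PEA3 genes are induced through ERK, their levels were set beside other genes that ERK output controls. Of 16 such genes 4 fell and 0 rose by edgeR, and the median log2 fold change was -0.40. This is 25% called, against 36.2% of all genes called in either direction and 18.6% lower. EPHA2, a receptor tyrosine kinase, had 165 ± 4.51 CPM in Set7KD and 236 ± 21.6 CPM in NTC (adjusted p 2e-05). SPRED2, an inhibitor of RAS signalling, had 43.3 ± 3.57 CPM in Set7KD and 53.6 ± 1.33 CPM in NTC (adjusted p 0.00268). FOSL1, an AP-1 subunit, had 39.2 ± 3.53 CPM in Set7KD and 47.5 ± 3.74 CPM in NTC (adjusted p 0.0131), a call lost when Set7KD replicate 1 or either of NTC replicates 1 and 2 was left out. DUSP6, the phosphatase that inactivates ERK, had 68.1, 95.4 and 44.2 CPM in Set7KD, against 264.9, 322.4 and 140.1 CPM in NTC. Its adjusted p was 0.0468 and exceeded 0.05 when any single library but NTC replicate 3 was left out. In the edgeR fit with the replicate block, the adjusted p of DUSP6 was 2.24e-11, and within each number its Set7KD library was the lower one. With the replicate block 11 of the 16 genes were lower and 0 higher, against 22.1% of all genes lower in that fit. Without Set7KD replicate 1 or NTC replicate 1 the count lower was 2, without NTC replicate 3 it was 7, and without both replicate 1 libraries it was 1.

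The order of the libraries within NTC was also compared. In NTC, 12 of the 16 ERK output genes were lowest in replicate 3, and their highest library exceeded the lowest 1.52-fold in the median and up to 2.69-fold for EGR1, an immediate early factor. EGR1 had 238, 369 and 127 CPM in Set7KD, against 1015, 1216 and 452 CPM in NTC (log2 fold change -1.87, adjusted p 0.0808, and 5.1e-09 with the replicate block). ETV1, ETV4 and ETV5 were all highest in NTC replicate 3, with ratios of 1.02, 1.34 and 1.118. For ETV1 this rests on 79, 76 and 80 counts in NTC replicates 1, 2 and 3, an order inside counting noise. SPRED1, SPRED3, CCND1 and EPHA4, 4 of the 16 ERK output genes, were highest there too, and the ratios of ETV4 and ETV5 lay inside the ERK output range of 1.05 to 2.69. Of the 9 ETS genes outside the 10, 8 were lowest in NTC replicate 3, as were ETS2, ERG, FLI1 and ELF1. No test was made of these orders, which rest on 3 libraries.

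**Figure D4:**
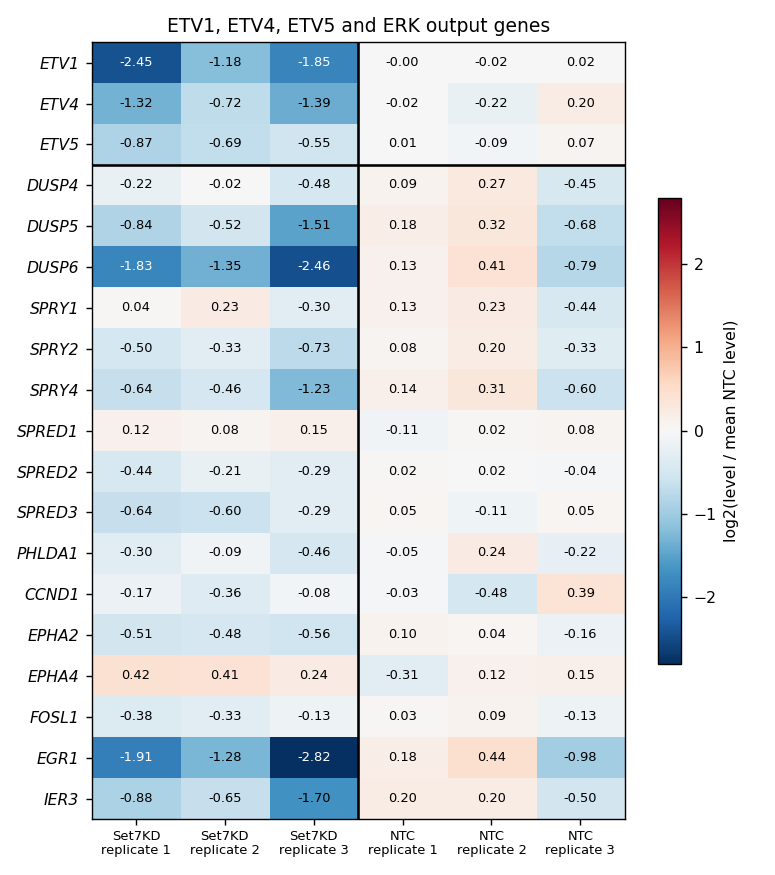
Level of ETV1, ETV4 and ETV5 (above the line) and of 16 ERK output genes (below it) in each library, as log2 of the level over the mean of the 3 NTC libraries, with Set7KD left and NTC right of the vertical line. DUSP6, DUSP5, SPRY4, EGR1 and IER3 are low in NTC replicate 3 and lowest in Set7KD replicate 3. ETV1, ETV4 and ETV5 are above their NTC mean in NTC replicate 3, ETV1 by a margin inside counting noise.

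The transcripts of the cascade itself moved both ways. Of 16 genes from HRAS to the RSK kinases 5 rose and 2 fell, or 43.75% against 36.2% of all genes, with a median log2 fold change of -0.01. Without Set7KD replicate 1 the count higher was 3, and the count lower was 1 without Set7KD replicate 2 or NTC replicate 1. NRAS, a RAS protein, had 193 ± 3.12 CPM in Set7KD and 134 ± 3.93 CPM in NTC (adjusted p 1.81e-06). MAP2K1, which encodes MEK1, had 99.7 ± 1.69 CPM in Set7KD and 82.3 ± 2.9 CPM in NTC (adjusted p 0.00096). RPS6KA3, an RSK kinase downstream of ERK, had 85.3 ± 4.26 CPM in Set7KD and 110.3 ± 2.83 CPM in NTC (adjusted p 0.000118). MAPK3, a kinase gene of the cascade, had a log2 fold change of -0.18 (adjusted p 0.074), and with the replicate block it passed at 0.0154. Phosphorylation of these proteins was not measured.

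Among genes whose products repress ETV1, ETV4 and ETV5 or remove their proteins, 3 of 7 tested rose and 0 fell by edgeR, which is 42.9% called against 36.2% of all genes. CIC itself had 100.5 ± 8.25 CPM in Set7KD and 109 ± 5.01 CPM in NTC (adjusted p 0.19). ATXN1L and ATXN1, which encode partners of Capicua, had 130.5 ± 2.21 and 50.4 ± 4.35 CPM in Set7KD, against 108 ± 5.97 and 40.3 ± 2.06 CPM in NTC (adjusted p 0.00153 and 0.00307). RFWD2, the gene for the ubiquitin ligase COP1 that marks PEA3 proteins for degradation, had 42.4 ± 1.02 CPM in Set7KD and 35.8 ± 1.17 CPM in NTC (adjusted p 0.00807). Without both replicate 1 libraries the calls of ATXN1 and RFWD2 were lost.

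Of 13 genes for DNA-binding and coactivator partners of ETS factors 3 fell and 1 rose, or 30.8% against 36.2% of all genes. With the replicate block 6 fell and 3 rose, where 22.1% of all genes were lower and 20.7% higher. Leaving out single libraries gave 1 to 5 lower and 0 to 3 higher, with 5 lower without NTC replicate 3 and 3 higher without NTC replicate 2. TAL1, an endothelial and blood factor, fell to 24.8 ± 2.92 CPM in Set7KD, against 35.4 ± 0.61 CPM in NTC (adjusted p 0.000213). JUN, the AP-1 subunit, had 244 ± 33.8 CPM in Set7KD and 573 ± 137.5 CPM in NTC (adjusted p 0.0186). This call was lost when any single library but NTC replicate 3 was left out, and with the replicate block the adjusted p was 1.16e-08. FOS, in the same list, did not pass in the main fit (log2 fold change -1.80, adjusted p 0.0729), and was lower with the replicate block (adjusted p 9.16e-12). SRF, the partner of ELK3 and ELK1, had a log2 fold change of -0.05 (adjusted p 0.837). EP300 and GABPB2 had adjusted p of 0.0465 and 0.0367, and these 2 calls were lost in 11 and 6 of 17 alternatives.

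Genes that the endothelial ETS factors are known to activate moved both ways. Of 24 tested 6 rose and 8 fell, which is 58.3% against 36.2% of all genes, and the median log2 fold change was -0.04. TIE1, an endothelial receptor, fell to 87.3 ± 3.48 CPM in Set7KD, against 144 ± 6.74 CPM in NTC (adjusted p 3.42e-07). CDH5, the cadherin of endothelial junctions and a target of ERG, fell to 119 ± 11.4 CPM in Set7KD, against 206 ± 32.1 CPM in NTC (adjusted p 0.00371). DLL4, a Notch ligand of arteries, fell to 0.73 ± 0.37 CPM in Set7KD, against 3.12 ± 0.91 CPM in NTC (adjusted p 0.000257). FLT1, a VEGF receptor, rose to 9.44 ± 0.64 CPM in Set7KD, against 5.28 ± 0.85 CPM in NTC (adjusted p 0.000222), and PLVAP, a protein of endothelial diaphragms, to 4.79 ± 1.82 CPM in Set7KD, against 0.93 ± 0.21 CPM in NTC (adjusted p 0.000171). VWF, ICAM2 and NOS3 did not pass, with log2 fold changes of 0.06, -0.14 and 0.25.

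Of 8 tested genes reported as targets of PEA3 factors in other cells 3 fell and 2 rose, or 62.5% against 36.2% of all genes. The count higher was 1 when any single library but Set7KD replicate 2 was left out. MMP1, a collagenase, fell to 11.3 ± 1.85 CPM in Set7KD, against 22.8 ± 4.21 CPM in NTC (adjusted p 0.000378). PLAU, the urokinase gene, fell to 144 ± 20.2 CPM in Set7KD, against 210.3 ± 23.6 CPM in NTC (adjusted p 0.011). CXCR4, a chemokine receptor, had 3, 1 and 6 counts in Set7KD and 17, 32 and 13 counts in NTC (adjusted p 0.00188). MMP2, another matrix protease, rose, with 77.1 ± 9.85 CPM in Set7KD and 48.9 ± 7.48 CPM in NTC (adjusted p 0.00625). With the replicate block the adjusted p of MMP2 was 0.0705. Without both replicate 1 libraries the calls of MMP2 and PLAU were lost.

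The genes whose log2 CPM ran most like the PEA3 genes over the 6 libraries, among those with a mean of at least 5 CPM, were found by Pearson correlation as a description. Closest to ETV1 were FAM60A, SLC39A11 and NEO1, each at 0.998 or above. Closest to ETV4 were COPG2, CCDC6 and SUSD1 at 0.995 to 0.996, and closest to ETV5 were SHC1P1, TRIM69 and FAM18B1 at 0.997 to 0.999. SHC1P1 is a pseudogene, whose reads may come from its parent gene. At 6 libraries in 2 groups such values are common: 427, 352 and 404 genes reached 0.95 with ETV1, ETV4 and ETV5, out of 13093, 13092 and 13092 compared.

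Finally, 3′ UTRs of the 10 genes were searched for ATGAATC and TGAATCA, 2 words of 7 bases that earlier results of these data had tied to lower fold changes. Either word was in the 3′ UTR of an annotated transcript for 3 of the 10 genes, ETV4, ETV6 and ERG, against 22.7% of 13004 genes, and for SETD7. The word was in 6 of 7 transcripts of ETV4, 10 of 10 of ERG, 1 of 3 of ETV6 and 1 of 5 of SETD7. Which transcripts the cells express was not tested. The median log2 fold change was -0.06 over the 2952 genes with a word and -0.00364 over the 10052 genes without one. Since the words were picked from these same data, this difference in medians cannot serve as support for them. ETV1 and ETV5 held neither word. The part of the words in any of these values was not tested. The first ERG stretch holds both words in overlap, as ATGAATCA, and its capitals mark TGAATCA alone. The sites are shown with their flanks, 5′ to 3′ on the transcript strand, with the word in capitals, as chr17:43528449-43528473 (ETV4, minus strand), chr12:11895255-11895279 (ETV6, plus strand), and chr21:38383317-38383341 and chr21:38381348-38381372 (ERG, minus strand), on GRCh38.
ETV4 3′ UTR: tacatataaATGAATCtggtgttgg
ETV6 3′ UTR: ataagggacTGAATCAaatgaatgt
ERG 3′ UTR, first site: cggagaacaTGAATCAaaagtgcct
ERG 3′ UTR, second site: tcttttcttTGAATCAcaaatgctg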

How the data were processed

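RNA-seq libraries of 6 HMEC-1 cultures, 3 Set7KD and 3 NTC, were grouped by their titles. The authors deposited 1 table of raw read counts per gene. BWA, bedtools and the build hg19 are named in the submitters' processing notes. Annotation, strand and the handling of reads with several matches are not given in the sources used here. BWA does not splice reads, and a row for reads outside genes, 55.6 to 56.1% of the counts of each library, was left out. Without strand, overlapping genes cannot be told apart.

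Counts were fitted over all 18482 genes left by filterByExpr with edgeR 4.0.16 in R 4.3.3 (TMM, glmQLFit with robust estimation, glmQLFTest, groups as the single factor, Benjamini-Hochberg over all genes). A gene was called at an adjusted p under 0.05. The method was tested on simulated data. CPM used TMM-scaled library sizes, and a standard error is the absolute log2 fold change over the square root of F. The 17 alternatives were size factors by relative log expression or by the upper quartile, no filter, a filter of 50 counts, the replicate block, DESeq2 1.42.0, limma-voom 3.58.1, a minimum fold of 1.2, and libraries left out.

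The groups share replicate numbers. Among the 11151 genes averaging 10 CPM or more, each library's deviation from its group mean was compared across groups, and the correlation was 0.3, 0.42 and 0.34 for numbers 1, 2 and 3, and -0.36 to -0.04 for unlike numbers. Each same-number value exceeded 0.1, which was read as pairing of like numbers, a reading that rests on the data and not on a label. The main fit left this pairing out, and the replicate block was used only as an alternative to it. Deviations within a group are tied to each other, so the values for unlike numbers partly follow from those for like numbers. Chi-square over degrees of freedom between replicates was 2.98 to 9.86, above counting noise.

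The members and gene lists were chosen with earlier results of these data known. The genes named are SETD7, the 10 members, the tested family genes, up to 4 called genes with the smallest p of each list, genes most like ETV1, ETV4 and ETV5, and genes that share exons with a member. Others are named with their values and were chosen after these were seen, as were the promoter and 3′ UTR words. Exon lengths, overlaps and 3′ UTRs came from GENCODE 29 by Ensembl identifier, and promoters from RefSeq by symbol. Both are on GRCh38, a later build than that of the counts, and their coordinates describe sequences alone. Scripts ran in Python 3.11.15.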

Additional observations from a re-analysis of the deposited data

How the results depend on the processing

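ETV1, ETV4 and ETV5 stayed lower with an adjusted p under 0.05 in each of the 17 alternatives, and their largest adjusted p were 0.0039, 0.0179 and 0.00243. SETD7 also kept its call in all 17. The count of the 10 genes called lower was 5 with the replicate block, and 3 to 5 when libraries were left out; it reached 5 without NTC replicate 3 and without both replicate 3 libraries. The count called higher was 0 against a fold of 1.2 and 1 to 2 when libraries were left out. Over all genes, 903 were higher and 1314 lower against a fold of 1.2, and 1414 to 3214 higher and 1562 to 3303 lower when libraries were left out, both lowest without both replicate 1 libraries. The gap in median log2 fold change between the PEA3 genes and the other 7 ran from -1.44 to -0.76 when libraries were left out, with the widest value without both replicate 2 libraries. The replicate block changed the calls of ERG and ELF1 and of no other of the 10 genes. When libraries were left out, log2 fold changes that changed sign ran from -0.264 to 0.0263 for ETS2, -0.486 to 0.0103 for ETV7, -0.0512 to 0.0402 for ERF and -0.0624 to 0.0817 for ELF2. The sign turned without NTC replicate 2 for ETS2, without Set7KD replicate 1 for ETV7, and in 4 settings each for ERF and ELF2. None of these 4 genes was called where its sign had turned. The count of ERK output genes called lower, 4 of 16, was 7 with DESeq2, 9 with limma-voom, 11 with the replicate block and 1 to 11 when libraries were left out. The causes were not tested. ETV1 rests on 14 to 33 counts in Set7KD, and CXCR4 and ELF3 on fewer. Standard errors of the log2 fold change were 0.23 for ETV1, 0.38 for ELF3 and 0.60 for the well counted EGR1.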
